A study of Mus musculus with 22 samples.

Results

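The clustered protocadherins of the mouse are 3 families of adjacent genes on chromosome 18, named alpha, beta and gamma. Members were chosen by name alone: a symbol of the form Pcdha, Pcdhb or Pcdhg, an optional A, B or C type, and a number. This gave 58 genes among 21032 gene symbols in any library, with 14 in the alpha, 22 in the beta and 22 in the gamma cluster. RNA was compared between primary mouse embryonic fibroblasts (MEFs) labelled as Lsh knockout (KO) and wild-type MEFs (WT), with 2 libraries of each genotype. Lsh, the protein of the gene Hells, is a chromatin remodeller of the SNF2 family that normal DNA methylation requires. All cells came from C57BL/6 embryos of embryonic day 13.5 and were used at passage 3 to 4, untreated as far as the labels say. The libraries are called KO1, KO2, WT1 and WT2 after genotype and replicate number. The labels do not say whether a number marks a shared litter or day, so p-values measure only the spread between these libraries.

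Clustered protocadherins are transmembrane adhesion proteins best known from neurons, where each cell makes its own small combination of isoforms and like combinations recognise each other. In the alpha and gamma clusters, each variable exon has its own promoter and encodes the outside of the protein, and is spliced to constant exons shared by the whole cluster. Beta genes consist of a single exon and have no constant part. Promoters of the numbered isoforms are known to be silenced by DNA methylation and, when unmethylated, to bind CTCF, which brings them to distant enhancers. The C-type isoforms at the end of the alpha and gamma clusters are chosen less at random than the numbered ones.

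On the mm9 build, the alpha rows span chr18:37089939-37347314, the beta rows from Pcdhb2 to Pcdhb22 chr18:37454494-37681073, and the gamma rows chr18:37821599-38001526. All lie on the plus strand. The spans are 257.4, 226.6 and 179.9 kb long. Values are RPKM, the authors' reads per kilobase of transcript per M (mega) mapped reads, for 1 RefSeq transcript per member. Alpha and gamma rows of a cluster share their last exons, so reads there were divided between isoforms by an estimate. Their values are levels assigned to an isoform, not counts of reads in its own exon. Beta rows run from 2319 to 5270 bases, and RPKM times length gave whole reads, within 0.1 of a read, for every beta gene with reads in each library. The numbers of mapped reads were refined on these same genes, so this is not a separate check. Many members are alike in sequence, and the sources used here do not say how reads matching several places were treated.

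As recovered from the RPKM values, the libraries held 122.5, 136.1, 132.2 and 176.6 M mapped reads in KO1, KO2, WT1 and WT2. Read counts and floors rest on these recovered depths. Hells, the targeted gene, was at 0.430 and 0.550 RPKM in KO1 and KO2, against 0.865 and 1.06 RPKM in WT1 and WT2. The KO level was 0.497 and 0.521 of the WT level in replicates 1 and 2. The direction follows the labels, but Hells RNA was still listed in KO and the difference did not pass (limma adjusted p = 0.200 with replicate number in the model and 1.00 without it). KO1 and WT1 list 26886 transcripts each and KO2 and WT2 list 21136 each, so the numbers separate 2 kinds of file, and changes are given within each number. Of the 58 members, 57 were listed in all 4 libraries. The exception was Pcdhb1, listed only in replicate 1, with 0 reads in KO1 and in WT1, which allows up to 0.00997 and 0.00924 RPKM (3 reads). Intervals and floors cover counting error only. In bulk RNA, fewer cells of a type and less RNA per cell cannot be told apart.

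The clusters differed in level and in direction. Summed alpha expression was 3.63 and 3.44 RPKM in KO1 and KO2, against 0.426 and 1.24 RPKM in WT1 and WT2. Summed beta expression was 14.2 and 25.4 RPKM in KO1 and KO2, against 3.88 and 12.5 RPKM in WT1 and WT2. Both KO sums lay above both WT sums in these clusters. The gamma sum was far higher, at 136.8 and 163.7 RPKM in KO1 and KO2, against 116.7 and 171.9 RPKM in WT1 and WT2, and its genotypes overlapped. KO over WT was 8.52 and 2.78 in replicates 1 and 2 for alpha, 3.66 and 2.03 for beta, and 1.17 and 0.952 for gamma. Sums of values with no test are a description.

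**Figure D1:**
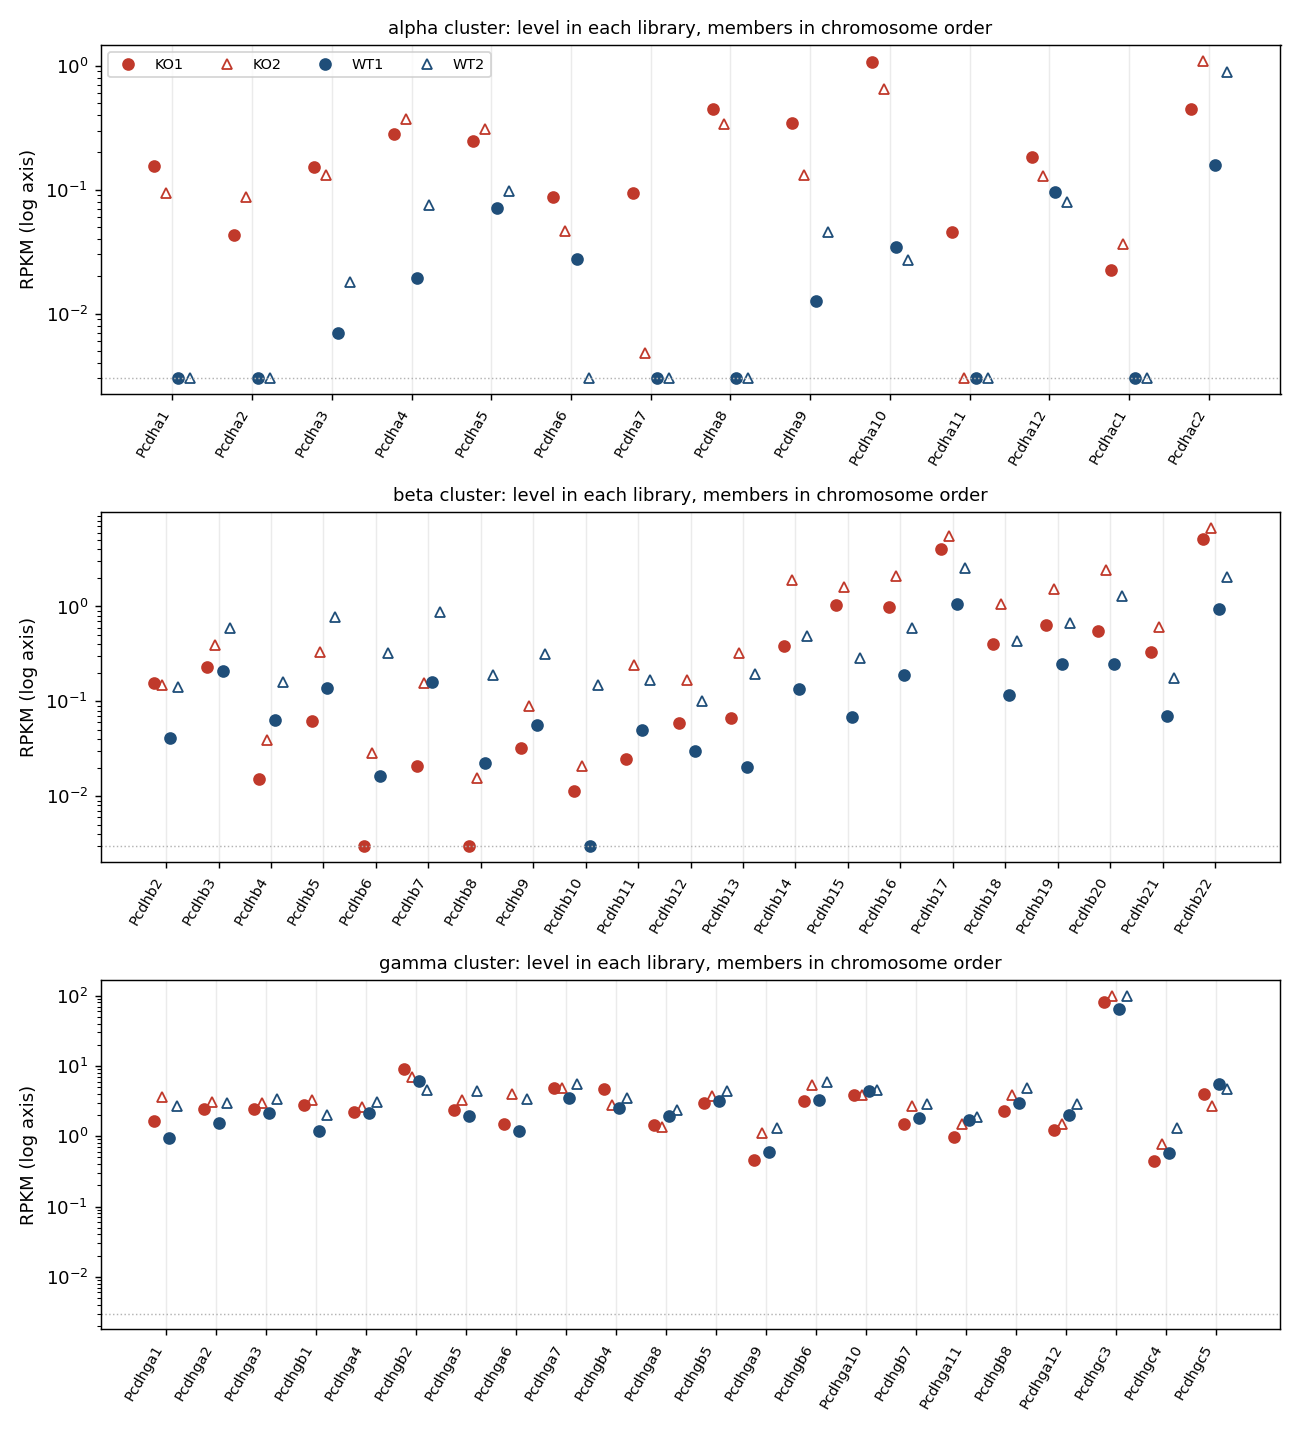
Level of each member in RPKM (log axis) in KO1, KO2, WT1 and WT2, in chromosome order, with 1 panel per cluster; values under 0.003 RPKM are drawn at the dotted line. The alpha KO points lie mostly above the WT points, the beta points cross over along the cluster, and gamma levels are close apart from Pcdhgc3, which exceeds the rest in every library.

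Of the 57 members, 30 were higher in KO within both replicate numbers and 17 were lower. Over all 16271 genes in the 4 libraries, 23.1% were higher within both numbers and 29% were lower. Both KO libraries lay above both WT libraries for 20 members and below them for 8, against 7.79% and 8.02% of all genes. The counts differed by cluster. In alpha, 13 of 14 members were higher and none lower. These 14 values come from shared reads divided by an estimate, and 12 of them did not pass the level filter used below. In WT1 and WT2, 6 and 7 of the 14 were under 0.001 RPKM, so even a small assigned KO level counts as higher. In beta, 12 of 21 were higher and 6 lower. In gamma, 5 of 22 were higher and 11 lower, near the 22.5% higher and above the 31.4% lower of the 11149 tested genes. Median changes within replicates 1 and 2, on the log2(RPKM + 0.5) scale, were 0.37 and 0.22 for alpha, 0.12 and 0.16 for beta, and 0.0059 and -0.18 for gamma. The medians over all tested genes were -0.069 and 0.018.

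For single genes, limma was fitted over the 11149 genes that reached 0.5 RPKM in 2 or more of the libraries, adjusted by Benjamini-Hochberg over all of them, with a threshold of 0.05. With genotype as the only term, 0 genes passed (0% of those tested). At an unadjusted p under 0.05 there were 41 genes, 4 of them members. With replicate number added to the model (the replicate block), 42 genes were raised (0.377%) and 33 lowered (0.296%). The members took 5 of the raised calls and 0 of the lowered: Pcdha10, Pcdhb15, Pcdhb16, Pcdhb17 and Pcdhb22. None of the 5 passed in the same fit with no level filter (adjusted p = 0.416 to 0.472), or with the highest transcript row per gene in place of the sum (adjusted p = 0.0598 to 0.136). The fit leaves 1 residual degree of freedom per gene, and its p-values leave out the spread between the numbers. A total of 30 members could be tested: 2 alpha, 6 beta and all 22 gamma. A gene can pass the level filter through its KO libraries, so the number tested is itself tied to the direction.

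In the alpha cluster, most isoforms were assigned more RPKM in KO than in WT. In WT1 and WT2, 6 and 7 of the 14 isoforms were assigned less than 0.001 RPKM, against 0 in KO1 and 1 in KO2. At 0.1 RPKM or more there were 9 and 8 isoforms in KO1 and KO2, against 1 in each of WT1 and WT2. Gapdh, a gene every cell uses, is listed near 0 in these files, so a listed 0 is not read as silence.

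Pcdha10 stood out. It was at 1.08 and 0.654 RPKM in KO1 and KO2, against 0.0343 and 0.0269 RPKM in WT1 and WT2. KO exceeded WT 31.5-fold and 24.4-fold in replicates 1 and 2. On the log2(RPKM + 0.5) scale, which understates changes of low genes, the change was 1.35 (SE 0.16, limma adjusted p = 0.00429 with the replicate block and 1.00 without it). It passed the level filter through its KO libraries alone, so the test was made on a gene chosen by its high KO level. Among the members it alone exceeded 0.5 RPKM in KO1 and KO2 while staying under 0.1 RPKM in WT1 and WT2. No member showed the reverse. Its row starts at base 37164974, behind those of 9 other numbered alpha isoforms.

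Pcdha8 was second among the numbered isoforms in KO1, at 0.447 RPKM, with 0.341 RPKM in KO2, and was under 0.001 RPKM in both WT libraries. Pcdha1, the first isoform of the cluster, was at 0.156 and 0.0931 RPKM in KO1 and KO2 and likewise under 0.001 RPKM in both WT libraries. Pcdha4 was at 0.282 and 0.374 RPKM in KO1 and KO2, against 0.0192 and 0.0758 RPKM in WT1 and WT2. In each of these, KO and WT did not overlap. None of the 3 passed the level filter, so none was tested. The remaining numbered isoforms reached at most 0.345 RPKM in KO (Pcdha9 in KO1) and 0.0967 RPKM in WT (Pcdha5 in WT2). Pcdha11 alone was not higher in KO within both numbers, with 0.0458 RPKM in KO1 and less than 0.001 RPKM elsewhere. Its replicate 2 values are too near 0 to give a direction.

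The 12 numbered isoforms summed to 3.16 and 2.31 RPKM in KO1 and KO2, against 0.267 and 0.343 RPKM in WT1 and WT2. Pcdhac2, the last isoform, which acts in the spacing of serotonin axons in the mouse brain, was at 0.444 and 1.10 RPKM in KO1 and KO2, against 0.159 and 0.897 RPKM in WT1 and WT2. Its genotypes overlapped, and its log2 change of 0.36 did not pass (limma adjusted p = 0.573 with the replicate block). It made up 12.2 and 32.0% of the alpha sum in KO1 and KO2, against 37.4 and 72.4% in WT1 and WT2. Pcdha10 made up 29.7 and 19.0% in KO1 and KO2, against 8.06 and 2.17% in WT1 and WT2. The largest share thus belonged to Pcdha10 in KO1 and to Pcdhac2 in the other 3 libraries. Pcdhac1, the other C-type alpha isoform, was low like the numbered ones. It reached 0.0224 and 0.0361 RPKM in KO1 and KO2 and was under 0.001 RPKM in WT1 and WT2.

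In the beta cluster, the change turned with position. From Pcdhb12 to Pcdhb22, all 11 genes were higher in KO within both numbers. Among the 10 genes from Pcdhb2 to Pcdhb11, 1 was higher within both numbers and 6 were lower. The summed level of the last 11 genes was 13.7 and 23.9 RPKM in KO1 and KO2, against 3.12 and 8.79 RPKM in WT1 and WT2. The first 10 genes summed to 0.552 and 1.47 RPKM in KO1 and KO2, against 0.759 and 3.70 RPKM in WT1 and WT2. KO over WT was therefore 4.38 and 2.72 for the last 11 genes in replicates 1 and 2, and 0.727 and 0.396 for the first 10. Spearman's rho between order on the chromosome and change was 0.77 in replicate 1 and 0.78 in replicate 2 over the 21 genes. The points share libraries, and neighbouring beta genes are alike in sequence, so this is a description.

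**Figure D2:**
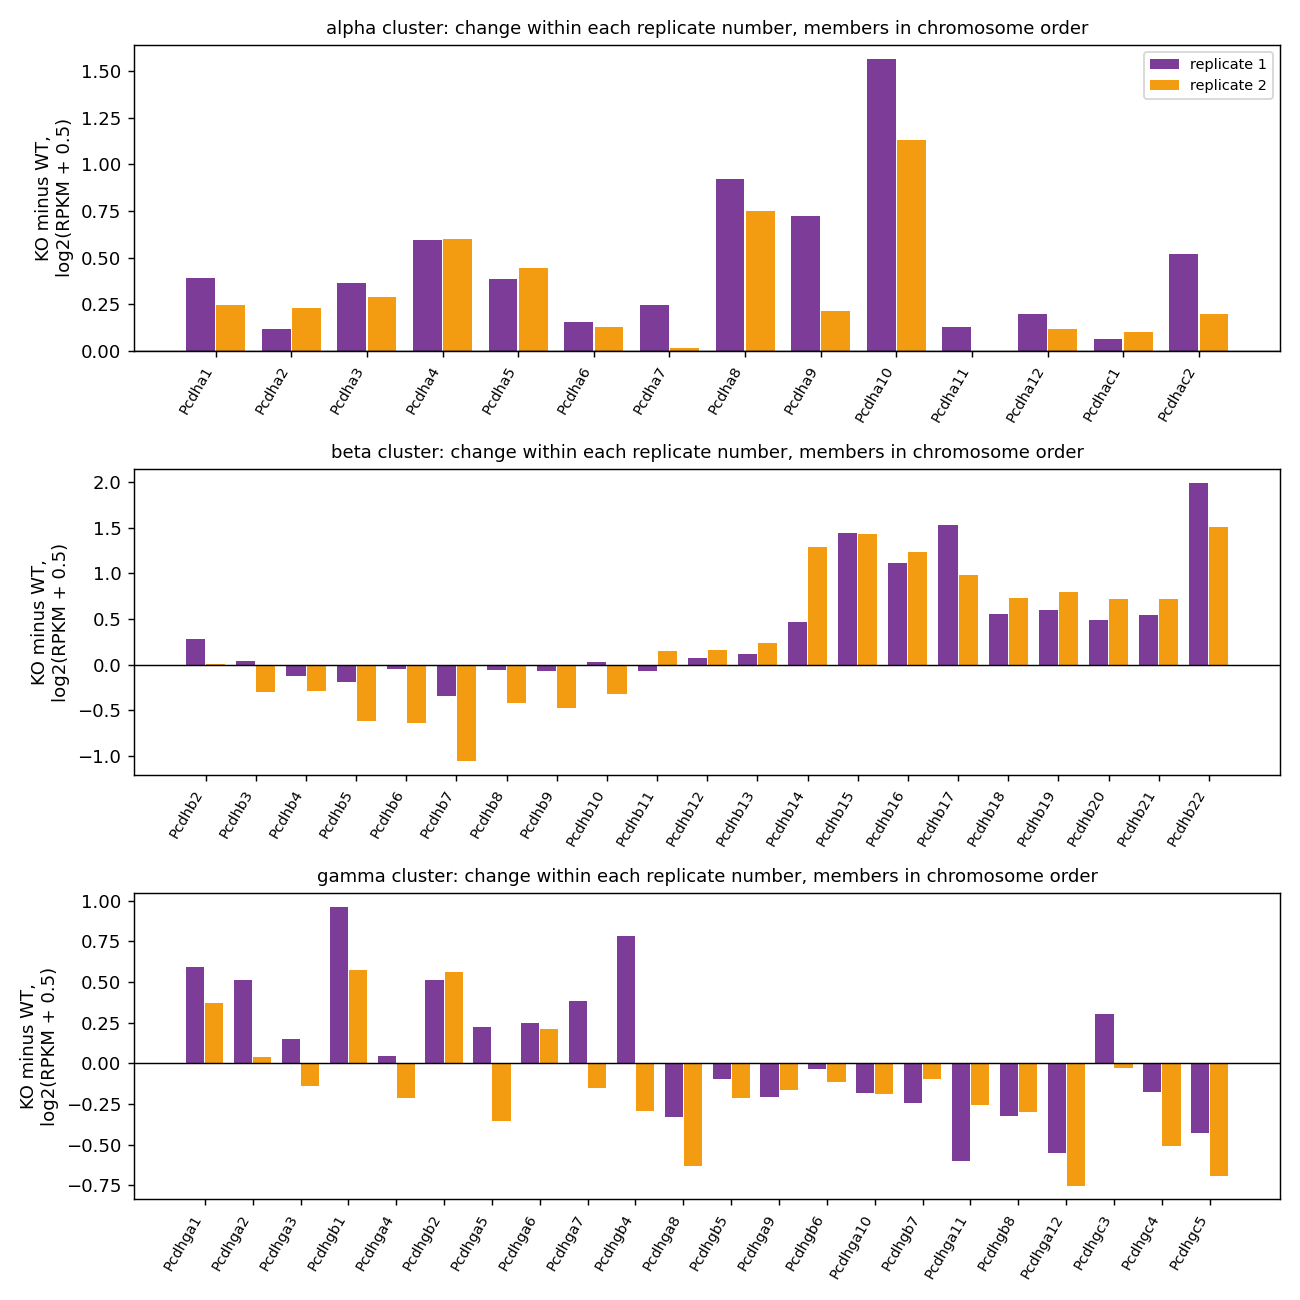
KO minus WT on the log2(RPKM + 0.5) scale within replicate 1 and within replicate 2 (bars), for each member in chromosome order. The last 11 beta genes have bars above 0 in both numbers, and the members from Pcdhga8 on lie below 0 in both except Pcdhgc3.

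Pcdhb22, the last beta gene (chr18:37678007-37681073), had the largest change of all members on the log2(RPKM + 0.5) scale. As a ratio, those of Pcdha3, Pcdha4, Pcdha10 and Pcdhb15 were larger in both numbers. No ratio was taken where WT was under 0.001 RPKM. With a pseudocount of 0.1 RPKM, Pcdha10 and Pcdhb15 had larger changes among the tested members. Pcdhb22 was at 5.20 and 6.69 RPKM in KO1 and KO2 (1953 and 2793 reads), against 0.935 and 2.03 RPKM in WT, from 379 reads in WT1 and 1097 in WT2. Its log2 change was 1.75 (SE 0.19, limma adjusted p = 0.00221 with the replicate block and 1.00 without it). Pcdhb15 (chr18:37633200-37635994) was at 1.04 and 1.61 RPKM in KO1 and KO2, against 0.0677 and 0.284 RPKM in WT1 and WT2. These are 357 and 613 reads in KO, and 25 and 140 reads in WT. Its log2 change was 1.44 (SE 0.16, limma adjusted p = 0.00221 with the block). Like Pcdha10, it passed the level filter through KO1 and KO2 alone, whereas Pcdhb22 reached 0.5 RPKM in all 4 libraries.

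The 2 genes after Pcdhb15 were also called. Pcdhb16 (chr18:37637422-37642691) was at 0.989 and 2.07 RPKM in KO1 and KO2, against 0.191 and 0.592 RPKM in WT1 and WT2. Its log2 change was 1.17 (SE 0.17, limma adjusted p = 0.00916 with the block). Pcdhb17 (chr18:37644675-37647944), the second most abundant beta gene, was at 4.00 and 5.49 RPKM in KO1 and KO2, against 1.06 and 2.53 RPKM in WT1 and WT2. Its log2 change was 1.26 (SE 0.20, limma adjusted p = 0.0171 with the block). In all 4 called beta genes both KO libraries lay above both WT libraries. Pcdhb16 reached the filter level in both KO libraries and in WT2 only, and Pcdhb17 in all 4 libraries. Without the block, the adjusted p of each was 1.00.

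The other tested beta genes were Pcdhb19 and Pcdhb20. Pcdhb19 was at 0.637 and 1.53 RPKM in KO1 and KO2, against 0.250 and 0.676 RPKM in WT1 and WT2. Pcdhb20, the third most abundant, was at 0.548 and 2.43 RPKM in KO1 and KO2, against 0.247 and 1.28 RPKM in WT1 and WT2. Both were higher within each number, but KO1 lay below WT2, and neither passed (limma adjusted p = 0.104 and 0.196 with the block). Pcdhb14 and Pcdhb18 likewise lay higher within each number with KO1 below WT2. Pcdhb21, not tested, had 109 and 227 reads in KO1 and KO2, against 25 and 84 in WT1 and WT2. Pcdhb12 and Pcdhb13 stayed under 0.321 RPKM in all 4 libraries.

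In the first part of the beta cluster the order was the reverse. Pcdhb7 had the largest decrease on the log2(RPKM + 0.5) scale, with 0.0210 and 0.157 RPKM in KO1 and KO2 (9 and 75 reads), against 0.162 and 0.867 RPKM in WT, from 75 reads in WT1 and 537 in WT2. Its KO level was 0.130 and 0.181 of WT in replicates 1 and 2. Pcdhb5 had 27 and 161 reads in KO1 and KO2, against 65 and 488 reads in WT1 and WT2. Pcdhb4 had 7 and 20 reads in KO1 and KO2, against 31 and 106 reads in WT1 and WT2. Both KO libraries lay below both WT libraries, in RPKM, for Pcdhb4, Pcdhb7 and Pcdhb8, and not for Pcdhb5.

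Replicate 1 holds few reads for these genes. Pcdhb6 had 0 reads in KO1 and 9 in KO2, against 5 and 132 in WT1 and WT2. Pcdhb8 had 0 reads in KO1 and 5 in KO2, against 7 and 79 in WT1 and WT2. A count of 0 in KO1 allows up to 0.0106 RPKM for Pcdhb6 and 0.0105 RPKM for Pcdhb8, against the WT1 levels of 0.0163 and 0.0226 RPKM. Pcdhb9 was lower within both numbers, with 12 and 37 reads in KO1 and KO2, against 23 and 172 reads in WT1 and WT2. None of the 10 genes passed the level filter, so the lower levels rest on their values and were not tested. The 7 genes from Pcdhb4 to Pcdhb10, a stretch chosen after its values were seen, summed to 0.142 and 0.685 RPKM in KO1 and KO2, against 0.460 and 2.79 RPKM in WT1 and WT2.

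The edges of that stretch were mixed. Pcdhb2, the first beta gene in all 4 libraries, had 53 and 56 reads in KO1 and KO2, against 15 and 70 reads in WT1 and WT2. In RPKM it was higher in KO within both numbers, at 0.156 and 0.148, against 0.0409 and 0.143. Pcdhb3, Pcdhb10 and Pcdhb11 differed in direction between the numbers. For Pcdhb10 this rests on 4 reads in KO1 and 0 in WT1. The gene with the largest share of the beta sum was Pcdhb22 in KO, at 36.6 and 26.4% in KO1 and KO2. In WT it was Pcdhb17, at 27.3 and 20.2% in WT1 and WT2.

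**Figure D3:**
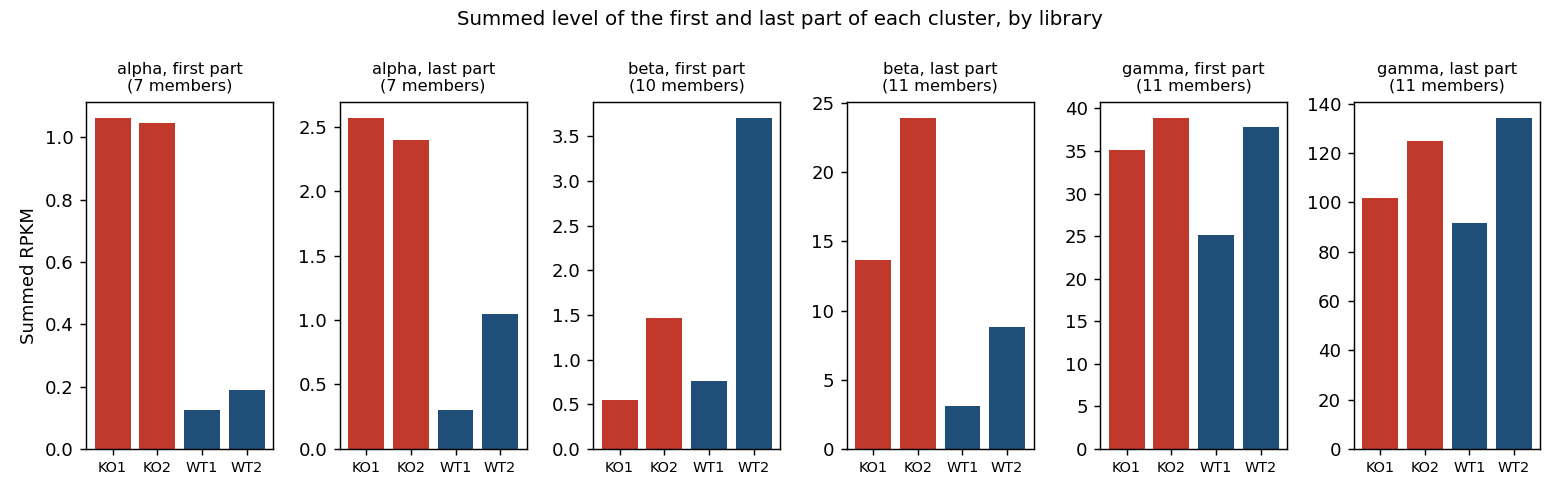
Summed RPKM of the members in the first and last part of each cluster, split at its middle member, as 1 bar per library from 0. The KO bars exceed the WT bars in both alpha parts and the last beta part, and within each number they are lower in the first beta part (0.552 and 1.47 in KO, against 0.759 and 3.70 in WT).

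In the gamma cluster, all 22 isoforms were present in both genotypes, and no single isoform passed the limma threshold in either fit. Pcdhgc3, a C-type isoform known to promote dendrite branching in the mouse, made up most of the cluster. It was at 80.8 and 97.8 RPKM in KO1 and KO2, against 65.4 and 99.6 RPKM in WT1 and WT2, and its genotypes overlapped (limma adjusted p = 0.910 with the block). Its share of the gamma sum was 59.1 and 59.7% in KO1 and KO2, against 56.0 and 57.9% in WT1 and WT2. Without it, the gamma sum was 56.0 and 65.9 RPKM in KO1 and KO2, against 51.4 and 72.3 RPKM in WT1 and WT2.

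The change again varied with position, but the other way round from beta. The median turned from above to below 0 in replicate 1 only. Of the 11 isoforms from Pcdhga1 to Pcdhga8, 5 were higher in KO within both numbers and 1 was lower. Of the 11 from Pcdhgb5 to Pcdhgc5, 0 were higher within both numbers and 10 were lower. The median log2 change of the first 11 was 0.39 in replicate 1 and -0.14 in replicate 2, and that of the last 11 was -0.20 and -0.21. Spearman's rho between order and change was -0.71 in replicate 1 and -0.58 in replicate 2 over the 22 isoforms, again as a description. The isoforms share their constant exons and libraries, so the points are not independent. In the alpha cluster rho was -0.024 in replicate 1 and -0.42 in replicate 2 over 14 isoforms.

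Among the first 11 gamma isoforms, the mean log2 changes furthest from 0 were those of Pcdhgb1 and Pcdhgb2. Pcdhgb1 was at 2.79 and 3.24 RPKM in KO1 and KO2, against 1.19 and 2.01 RPKM in WT1 and WT2. Its log2 change of 0.77 (SE 0.19) had a limma adjusted p of 0.124 with the block. Pcdhgb2, second in level to Pcdhgc3 in KO, was at 8.92 and 7.03 RPKM in KO1 and KO2, against 6.10 and 4.60 RPKM in WT1 and WT2 (log2 change 0.54, limma adjusted p = 0.253 with the block). In these isoforms both KO libraries lay above both WT libraries. They were the only gamma members of which this held.

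Pcdhga1, the first isoform, was at 1.67 and 3.64 RPKM in KO1 and KO2, against 0.939 and 2.70 RPKM in WT1 and WT2. Pcdhga2 was at 2.42 and 3.08 RPKM in KO1 and KO2, against 1.55 and 2.98 RPKM in WT1 and WT2. Pcdhga6 was at 1.50 and 3.99 RPKM in KO1 and KO2, against 1.19 and 3.38 RPKM in WT1 and WT2. These 3 were higher in KO within both numbers, with overlapping genotypes, and none passed (limma adjusted p of at least 0.412 with the block).

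A further 5 of the first 11 isoforms differed in direction between the numbers, higher in KO in replicate 1 and lower in replicate 2. Pcdhga3 was at 2.42 and 3.01 RPKM in KO1 and KO2, against 2.13 and 3.36 RPKM in WT1 and WT2. Pcdhga4 was at 2.22 and 2.57 RPKM in KO1 and KO2, against 2.13 and 3.06 RPKM in WT1 and WT2. Their values lay within the WT range. Pcdhga5 was at 2.33 and 3.30 RPKM in KO1 and KO2, against 1.92 and 4.36 RPKM in WT1 and WT2. Pcdhga7 was at 4.79 and 4.86 RPKM in KO1 and KO2, against 3.55 and 5.46 RPKM in WT1 and WT2. These, too, lay between WT1 and WT2. Pcdhgb4 was at 4.64 and 2.78 RPKM in KO1 and KO2, against 2.49 and 3.52 RPKM in WT1 and WT2, the widest disagreement between numbers in the cluster.

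From Pcdhga8 to Pcdhga12, all 9 isoforms were lower in KO within both numbers. Pcdhga12, the last A-type isoform, was at 1.22 and 1.51 RPKM in KO1 and KO2, against 2.02 and 2.88 RPKM in WT1 and WT2. Its log2 change of -0.65 (SE 0.18) was the largest decrease of a tested member and did not pass (limma adjusted p = 0.184 with the block). Pcdhga8 was at 1.46 and 1.34 RPKM in KO1 and KO2, against 1.97 and 2.35 RPKM in WT1 and WT2. Both KO libraries lay below both WT libraries in each. The same held for Pcdhga10, at 3.83 and 3.91 RPKM in KO1 and KO2, against 4.41 and 4.53 RPKM in WT1 and WT2. It held for Pcdhga11 as well, at 0.968 and 1.51 RPKM in KO1 and KO2, against 1.72 and 1.90 RPKM in WT1 and WT2.

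In the other isoforms of the stretch the genotypes overlapped. Pcdhga9, the lowest A-type isoform, was at 0.458 and 1.12 RPKM in KO1 and KO2, against 0.604 and 1.31 RPKM in WT1 and WT2. Pcdhgb5 was at 2.96 and 3.68 RPKM in KO1 and KO2, against 3.20 and 4.35 RPKM in WT1 and WT2. Pcdhgb6 was at 3.18 and 5.42 RPKM in KO1 and KO2, against 3.28 and 5.91 RPKM in WT1 and WT2. Replicate 2 was above replicate 1 in these B-type isoforms by more than the genotypes differed. Pcdhgb7 was at 1.48 and 2.67 RPKM in KO1 and KO2, against 1.84 and 2.89 RPKM in WT1 and WT2. Pcdhgb8 was at 2.29 and 3.82 RPKM in KO1 and KO2, against 2.99 and 4.81 RPKM in WT1 and WT2. The 9 isoforms, a stretch chosen after its values were seen, summed to 0.809 and 0.808 of the WT level in replicates 1 and 2.

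The last 2 isoforms are C-type. Pcdhgc5 was at 4.03 and 2.69 RPKM in KO1 and KO2, against 5.59 and 4.66 RPKM in WT1 and WT2, with no overlap (log2 change -0.56, limma adjusted p = 0.256 with the block). Pcdhgc4, which the survival of neurons is known to require in the mouse, was at 0.451 and 0.767 RPKM in KO1 and KO2, against 0.574 and 1.30 RPKM in WT1 and WT2. It was lower within both numbers and overlapped between genotypes (limma adjusted p = 0.619 with the block). Between them and Pcdhga12 lies Pcdhgc3, which differed in direction between the numbers. By type, the 12 A-type isoforms summed to 25.3 and 33.8 RPKM in KO1 and KO2, against 24.1 and 38.3 RPKM in WT1 and WT2. The 7 B-type isoforms summed to 26.3 and 28.6 RPKM in KO1 and KO2, against 21.1 and 28.1 RPKM in WT1 and WT2. Within both numbers, 3 A-type isoforms were higher in KO and 5 lower, and 2 B-type isoforms were higher and 4 lower. Both KO libraries lay above both WT libraries for 0 A-type and 2 B-type isoforms, and below them for 4 and 0. Over all genes these shares were 7.79% and 8.02%. Position and type were not tested apart.

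**Figure D4:**
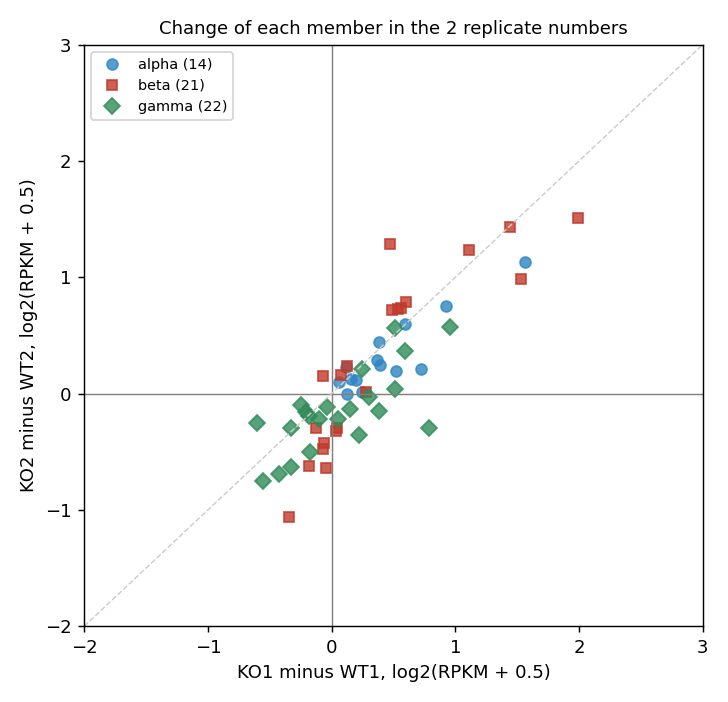
KO minus WT on the log2(RPKM + 0.5) scale in replicate 1 (x axis) and replicate 2 (y axis) for 57 members, by cluster, with the line of equal change dashed. The alpha points lie above 0 on both axes, apart from Pcdha11, which is almost at 0 in replicate 2, and beta and gamma points lie on both sides.

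Within each cluster, the changes in the 2 numbers, which share no library, were correlated. Pearson's r between them was 0.90 over 14 alpha, 0.87 over 21 beta and 0.73 over 22 gamma members. Spearman's rho was 0.73, 0.90 and 0.69. The direction was the same for 13 of 14 alpha, 18 of 21 beta and 16 of 22 gamma members. Members of a cluster share reads, exons or sequence, so these values describe the members. Levels also differed between the numbers of a genotype. Replicate 2 over replicate 1 was 0.949 in KO and 2.91 in WT for the alpha sum, 1.78 in KO and 3.22 in WT for the beta sum, and 1.20 in KO and 1.47 in WT for the gamma sum. The WT libraries thus differed from each other, in the alpha and beta sums, by more than the KO libraries did.

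Genes around and between the clusters were not called. The nearest 5 on each side and the 3 between the first and last member were taken: Dnd1, Hars, Hars2, Zmat2 and Vaultrc5 before, Pcdha4-g, Slc25a2 and Taf7 between, and Diap1, Hdac3, Rell2, Fchsd1 and Arap3 after. Of these, 7 were tested, with log2 changes between -0.25 (Hars, a histidyl-tRNA synthetase) and 0.13 (Taf7, a subunit of the general factor TFIID). Their limma adjusted p was at least 0.781 with the block. Taf7, which lies between the beta and gamma clusters, was at 1.90 and 3.15 RPKM in KO1 and KO2, against 1.86 and 2.61 RPKM in WT1 and WT2. Pcdha4-g, a row that spans both outer clusters, was assigned almost nothing in any library. Of the other 12 genes, 1 was higher in KO within both numbers and 7 were lower, against 23.1% and 29% of all genes.

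Genes that act on the clusters or with their proteins were described from lists chosen with earlier results known. Of 34 chromatin and architecture genes, 28 were tested, and 0 were raised and 0 lowered in either fit (median log2 change -0.065). With the block, 0.377% of all tested genes were raised and 0.296% lowered. Within both numbers, 4 of the 28 were higher in KO and 11 were lower, against 22.5% and 31.4% of all tested genes. CTCF's gene was at 7.46 and 13.2 RPKM in KO1 and KO2, against 7.63 and 11.3 RPKM in WT1 and WT2. Smchd1, a repressor that acts on these clusters in the mouse, was at 2.59 and 3.09 RPKM in KO1 and KO2, against 2.77 and 2.47 RPKM in WT1 and WT2. Neither differed beyond the spread of its libraries (limma adjusted p = 0.946 and 0.950 with the block). The cohesin subunit gene Rad21 was at 13.9 and 29.9 RPKM in KO1 and KO2, against 19.0 and 28.0 RPKM in WT1 and WT2. Hells, also on the list, had a log2 change of -0.56. That of Uhrf1, named after its values were seen, was -0.545 (SE 0.18, limma adjusted p = 0.291 with the block).

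Other families of adhesion genes held 0 calls in either direction and in both fits. Over all tested genes, 0.377% were raised and 0.296% lowered with the block, and 0% were called without it. At these shares, 0 calls in lists of this size do not set them apart from other genes. Of 16 nonclustered protocadherins, which are solitary genes elsewhere in the genome, 8 were tested (median log2 change 0.19). The most abundant, Pcdh7 and Pcdh18, had log2 changes of -0.033 and -0.16. Of the 8, 4 were higher in KO within both numbers and 2 were lower, against 22.5% and 31.4% of all tested genes. The log2 change of Pcdh9 was 0.81 (SE 0.21), with 5.43 and 5.15 RPKM in KO1 and KO2, against 2.11 and 3.68 RPKM in WT1 and WT2 (limma adjusted p = 0.153 with the block). Pcdh1, Pcdh10 and Pcdh20 had log2 changes of 0.54, 0.53 and 0.42, named like Pcdh9 after their values were seen. Of 20 signalling and processing partners, 19 were tested (median log2 change 0.027). Adam10, the protease that sheds the outer part of clustered protocadherins, was at 27.6 and 36.4 RPKM in KO1 and KO2, against 26.9 and 29.0 RPKM in WT1 and WT2. Of 24 classical cadherins and catenins, 14 were tested (median log2 change 0.021). Cdh11, a cadherin of mesenchymal cells, was at 80.0 and 185.2 RPKM in KO1 and KO2, against 64.0 and 148.5 RPKM in WT1 and WT2 (limma adjusted p = 0.611 with the block).

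The cells carried fibroblast markers in both genotypes. The 12 listed fibroblast genes summed to 3220 and 3383 RPKM in KO1 and KO2, against 2974 and 3386 RPKM in WT1 and WT2. Clustered protocadherins are best known from neurons, and neuron markers were read beside them. Of 16, 13 were in all 4 libraries and 4 were tested. With the block 1 was raised, against 0.377% of all tested genes. Tubb3, a tubulin of neurons that other cells also make, was at 41.4 and 31.2 RPKM in KO1 and KO2, against 18.5 and 14.7 RPKM in WT1 and WT2 (log2 change 1.10, limma adjusted p = 0.0125 with the block). The list summed to 63.1 and 57.9 RPKM in KO1 and KO2, against 43.6 and 44.2 RPKM in WT1 and WT2. Without Tubb3, the other 12 summed to 21.7 and 26.6 RPKM in KO1 and KO2, against 25.1 and 29.5 RPKM in WT1 and WT2, so the higher KO sum was that of Tubb3. Stmn2, a neuronal tubulin-binding protein gene, was at 4.70 and 1.22 RPKM in KO1 and KO2, against 12.7 and 0.973 RPKM in WT1 and WT2. Its WT1 value was the largest of these 12. Within both numbers, 4 of the 13 markers were higher in KO (Tubb3, Nefm, Nefl and Mapt) and 0 were lower. Over all genes these shares were 23.1% and 29%. Nefm was at 0.940 and 1.11 RPKM in KO1 and KO2, against 0.686 and 0.693 RPKM in WT1 and WT2. Rbfox3, which defines mature neurons, was at 0 and 0.0133 RPKM in KO1 and KO2, against 0 and 0.0113 RPKM in WT1 and WT2. The synaptic gene Snap25 was at 0 and 0.146 RPKM in KO1 and KO2, against 0 and 0.0668 RPKM in WT1 and WT2.

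Blood and macrophage markers differed between genotypes within each number, and between the numbers. All 12 were lower in KO within both numbers, against 29% of all genes. Of the 10 tested, 4 were lowered with the block, against 0.296% of all tested genes, and 0 were called without it. Both KO libraries lay below both WT libraries for 2 of these 10, against 8.02% of all genes. The list summed to 8.37 and 84.6 RPKM in KO1 and KO2, against 60.3 and 175.4 RPKM in WT1 and WT2. The 9 glia and Schwann cell markers in all 4 libraries summed to 1.58 and 7.38 RPKM in KO1 and KO2, against 2.20 and 8.75 RPKM in WT1 and WT2, with 0 calls among the 4 tested. The sum of the first 10 beta genes was, like these lists, lowest in KO1 and highest in WT2. The sum of the gamma isoforms from Pcdhga8 to Pcdhga12 had the same order. Any sum lower in KO within both numbers and higher in replicate 2 of both genotypes must be lowest in KO1 and highest in WT2. The part of these cell types in the protocadherin levels was not tested.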

How the data were processed

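RNA was measured in 2 KO and 2 WT libraries, and the other 18 of the 22 samples are not analysed here. The deposited values are RPKM per RefSeq transcript, computed by the authors. mm9 and Partek are named in the submitters' processing notes, and Cufflinks in the deposited readme. The aligner is not given in the sources used here. Rows cover chromosomes 1 to 19. Of the 58 members, 57 matched a RefSeq gene table by accession. Rows were summed per gene symbol. limma 3.58.1 in R 4.3.3 (trend and robust variance, two-sided) was run on log2(RPKM + 0.5) and tested on simulated data. Mapped reads were recovered from olfactory receptor loci of at most 1000 bases, of which at least 97.1% were whole within 0.02 of a read in each library. The recovered numbers were then refined on the beta genes.

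The replicate block is given beside the fit without it because the numbers separate 2 kinds of file and libraries of the same number deviated together (correlation 0.875 over tested genes, 0.782 over tested members).

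Members, lists, designs and naming rules were chosen with earlier results of these data known. Values per library are given for tested or called members, the 3 most abundant and the outermost of each cluster, and members at 0.1 RPKM or less in one genotype and 0.5 RPKM or more in the other. The other untested members named with values were chosen after those were seen.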

Additional observations from a re-analysis of the deposited data

How the results depend on the processing

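No gene passed without the replicate block under any alternative or with any library left out (0 to 0). With the replicate block, 75 genes and 5 members passed. It gave 37 genes and 4 members with a pseudocount of 0.1 RPKM, where Pcdhb17 was lost (adjusted p = 0.0505), 59 and 5 with 1 RPKM, 68 and 5 with median-ratio scaling, and 164 and 6 with quantile normalization, which added Pcdhb14. With no filter on low values 0 genes passed, and with the highest transcript row per gene 3 genes and 0 members. The adjusted p of the 5 members was then 0.416 to 0.472 and 0.0598 to 0.136; their log2 changes did not move. Signs of uncalled members changed in 25 of 98 values with a library left out and in 2 of 347 other values (both Pcdhga3).

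The mean log2 ratio of the summed levels was 2.28 for alpha, 1.45 for beta and 0.079 for gamma. With a library left out it was 1.51 to 3.05, 0.66 to 2.35 and -0.19 to 0.36; each range runs from without WT1 to without WT2. The gamma direction therefore rests on the libraries used. With a pseudocount of 0.05 RPKM, chosen after seeing the data, the median changes were 1.29 and 0.76 for the first and last part of alpha (split at the middle), -0.91 and 1.49 for beta, and -0.29 for the last part of gamma. The last was -0.17 with median-ratio scaling, -0.20 in replicate 1 and -0.21 in replicate 2, against -0.19 as reported. The median of the first part of gamma was 0.39 in replicate 1 and -0.14 in replicate 2, so its sign differed between the numbers. The cause was not tested. Depth limits the first beta genes, which hold 229 reads in KO1 and 349 in WT1.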
